A study of Homo sapiens with 8 samples.

Results

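The 36 genes described here encode the machinery that copies DNA in S phase, from the proteins that mark replication origins to the polymerases, the sliding clamp and the enzymes that supply deoxynucleotides. They were chosen by symbol for known roles in replication and found, all 36, among the 60558 genes of each library's table. RNA-seq covered 2D hIECs (human intestinal epithelial cells grown as flat cultures) differentiated from H9, a single human embryonic stem cell line, so no second genetic background was measured. Cells were kept normal or inflamed, each without and with PM10, which makes 4 groups of 2 libraries, and the labels state 10 days of treatment throughout. By the study's methods, inflamed hIECs received the cytokines IFNγ and TNFα at 50 ng/ml each over 10 days, and PM10, the coarse fraction of airborne particulate matter, was added at 100 μg/ml on the final 7 of them. Normal hIECs received no cytokines. The sources used here do not say whether the 2 libraries of a group came from separate cultures, so p-values measure the spread between these libraries, which may be technical.

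Before a cell enters S phase, the origin recognition complex together with CDC6 and CDT1 loads the MCM2-7 helicase onto DNA, and CDC45 and the GINS complex then turn the loaded ring into a working helicase. Primase and DNA polymerase alpha start each new strand, the clamp loader places PCNA on it, and the delta and epsilon polymerases extend it. Many of these genes are transcribed by E2F factors once cyclin-dependent kinases have inactivated the retinoblastoma family, and in the intestine such transcription is a property of the dividing crypt cells and is lost as enterocytes mature.

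E2F binding words in the promoters are shown first because they are what most of these genes share and because sequence played no part in choosing the genes. RefSeq windows of 300 bases, from 250 bases before each start to 50 after it (GRCh38.p14), were found for 33 of the 36 genes, all but MCM4, MCM5 and CCNE2. They were searched on both strands for the words TTTCGCGC, TTTCGCGG, TTTGGCGC, TTTGGCGG and TTTCCCGC, which may overlap one another. At least 1 word was present in the promoters of 21 of the 33 genes (63.6%), against 4.51% of the 27305 genes with a window. The stretches of 30 bases below hold the word nearest upstream of a RefSeq start, in capitals, for genes named in the results, on the strand of the gene.
CDC6 (chr17:40287840-40287869, plus strand): cgaggccgggcTTTGGCGGgaggtgggaac
CDT1 (chr16:88803751-88803780, plus strand): cccGCGGGAAATTTGGCGGgaaccgcgccc
CDC45 (chr22:19479884-19479913, plus strand): aggagccgtgaTTTGGCGGgagtcttgacc
MCM6 (chr2:135876511-135876540, minus strand): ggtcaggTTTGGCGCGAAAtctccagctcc
POLA2 (chr11:65261927-65261956, plus strand): tgcacaaaccaTTTGGCGGgtttttccggc
POLE (chr12:132687343-132687372, minus strand): ctgggtgggagcGCGCCAAAtttctcccct
PCNA (chr20:5126663-5126692, minus strand): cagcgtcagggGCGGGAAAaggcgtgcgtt
RFC3 (chr13:33818083-33818112, plus strand): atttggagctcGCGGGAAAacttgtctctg
TYMS (chr18:657603-657632, plus strand): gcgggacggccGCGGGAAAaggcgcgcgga
UHRF1 (chr19:4909471-4909500, plus strand): caaatgccgagtTTTCGCGGGAAAaaaatc
E2F1 (chr20:33686387-33686416, minus strand): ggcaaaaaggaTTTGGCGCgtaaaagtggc
In CDT1, MCM6 and UHRF1, 2 words lie side by side or overlap. The CCAAT box, which binds the factor NF-Y, was searched on both strands as CCAAT and was present in 20 of the 33 promoters (60.6%), against 39.7% of all genes with a window. CDC6 and E2F1 carry both kinds of word, shown in capitals in the 130 bases before their starts.
CDC6 (chr17:40287749-40287878, plus strand): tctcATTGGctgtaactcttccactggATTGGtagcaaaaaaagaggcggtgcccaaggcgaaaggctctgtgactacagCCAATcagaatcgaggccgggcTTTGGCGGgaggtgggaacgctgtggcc
E2F1 (chr20:33686386-33686515, minus strand): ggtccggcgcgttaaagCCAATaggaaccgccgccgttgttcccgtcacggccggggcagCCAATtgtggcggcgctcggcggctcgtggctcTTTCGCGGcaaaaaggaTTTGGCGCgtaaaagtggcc
The promoters of RRM1, RRM2 and FEN1 held none of the 5 E2F words in these windows, and RRM2 held 3 CCAAT words. A match is a word in a window and was not read as a bound site.

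All 36 genes were detected. Gene positions below are GENCODE's on GRCh38, and its starts can differ from those of RefSeq. Levels are given in FPKM, which counts sequenced fragments relative to transcript length and library size, so they can be compared between genes. Of the 36 genes, 33 were at 1 FPKM or more in all 8 libraries, and all 36 passed the minimum of 1 FPKM in at least 2 libraries that was required for testing. In normal hIECs, PCNA, the sliding clamp, was the highest at 52.1 ± 5.20 FPKM (mean ± SD, n = 2), followed by TYMS, thymidylate synthase, at 20.7 ± 1.03 and MCM3 at 19.4 ± 1.85. TYMS and MCM3 did not differ beyond their spread. CCNE2, which encodes cyclin E2, was the lowest at 0.869 ± 0.733 FPKM, and the median of the 36 genes was 6.05 FPKM. CCNE2 was at 1.39 and 0.350 FPKM in the 2 normal libraries. Only the second value lay near the lowest level above 0 of any gene (0.164 to 0.228 FPKM, depending on the library). These libraries are not strand-specific, and 17 of the 36 genes have exons over exons of another gene, which makes their values uncertain. For TYMS 47.9% of the exonic bases were shared, and the highest overlapping gene was at 3.93 FPKM. For CCNE2 the share was 37.1%, with an overlapping gene at 11.1 FPKM, and for PRIM1 19.1%, with an overlapping gene at 419 FPKM.

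**Figure D1:**
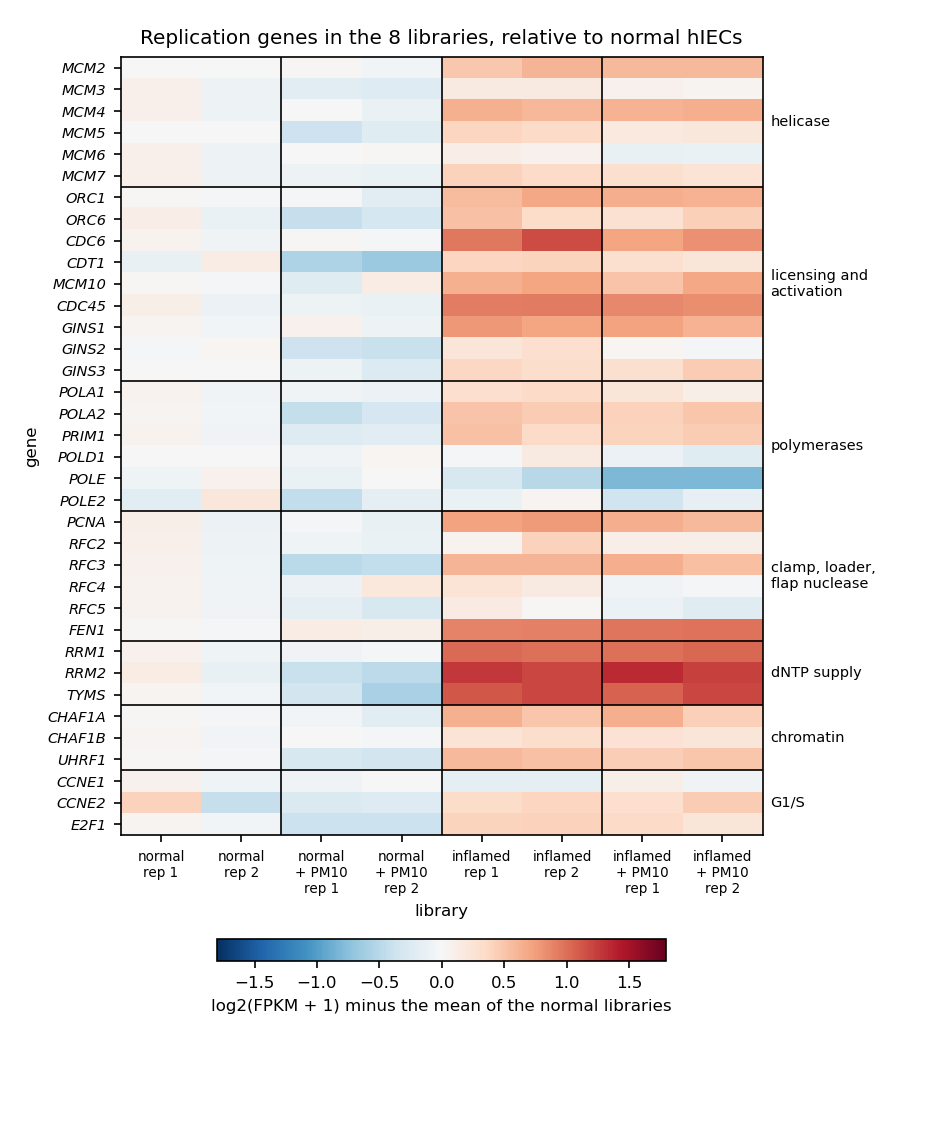
Heat map of log2(FPKM + 1) minus the mean of the 2 normal libraries for the 36 replication genes (rows, ordered by role) in the 8 libraries (columns). The 4 libraries with cytokines are red for most genes, with RRM2 and TYMS strongest, and POLE is blue in all 4.

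Facts of the libraries bear on every comparison. The 37 genes of the mitochondrial genome took 17.02% and 24.2% of the FPKM in the normal libraries and 15.5% to 20.4% in the other 6. The labels call the cells intestinal epithelial, but 9 of 13 epithelial markers, among them CDX2, VIL1, MUC2 and LYZ, were at 0 in all 8 libraries, and 11 were under 1 FPKM, the exceptions being SOX9 and LGR5. The summed level of the 13 markers was 16.1 to 18.2 FPKM in normal hIECs, 16.4 to 16.9 with PM10, 9.45 to 9.56 in inflamed hIECs and 11.9 to 12.5 with both. Of the 2 epithelial markers tested, 1 rose and 1 fell under cytokines, both without and with PM10. The summed level of 10 mesenchymal markers was 5009.7 to 5028 FPKM in normal hIECs, 4350.3 to 4369 with PM10, 5664 to 5731 in inflamed hIECs and 4995 to 5020.2 in inflamed hIECs with PM10. Single mesenchymal markers went both ways. Under cytokines 4 rose and 4 fell without PM10 and 5 rose and 5 fell with PM10, with medians of −0.02 and −0.14. Of 8 neuronal markers, ELAVL3 and ELAVL4 were at 0 in all libraries, and the summed level was 234 to 248 FPKM in normal hIECs, 263 to 269.7 with PM10, 151 to 154 in inflamed hIECs and 167 to 172 with both. Of the 6 tested, 4 fell and 1 rose under cytokines without PM10 and 5 fell and 1 rose with PM10, with medians of −0.62 and −0.66. Of 5 pluripotency markers, POU5F1, NANOG and LIN28A were at 0 in all libraries, and the summed level was 7.72 to 10.9 FPKM over the 8 libraries. Their part in the results was not tested. In bulk RNA, fewer replicating cells and less of a transcript in each cell cannot be told apart.

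Replication genes were higher in inflamed hIECs. Summed over the 36 genes, the level was 320 and 291 FPKM in the normal libraries and 467 and 469.9 FPKM in the inflamed libraries. In limma's test on log2(FPKM + 1), 26 of the 36 genes rose and 1 fell at an adjusted p under 0.05, while of the 14206 genes tested 25.9% were called higher and 30.3% lower. The median log2 fold change was 0.42 over the 36 genes and −0.03 over all genes tested. Under PM10, where inflamed hIECs with PM10 were set against normal hIECs with PM10, 28 genes rose and 1 fell, against 25.8% and 39.6% of all genes, with medians of 0.65 and −0.11. These comparisons set different libraries against each other, but a single fit to all 8 libraries gave the spread for both. They are therefore not independent tests. All 26 genes that rose without PM10 also rose with it, which is 92.9% of the 28, and 7 genes passed in neither comparison. How many of all genes tested rose in both was not counted. Of the 27 calls without PM10, 20 held under every alternative in which the gene was tested, and of the 29 with PM10, 26 did.

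**Figure D2:**
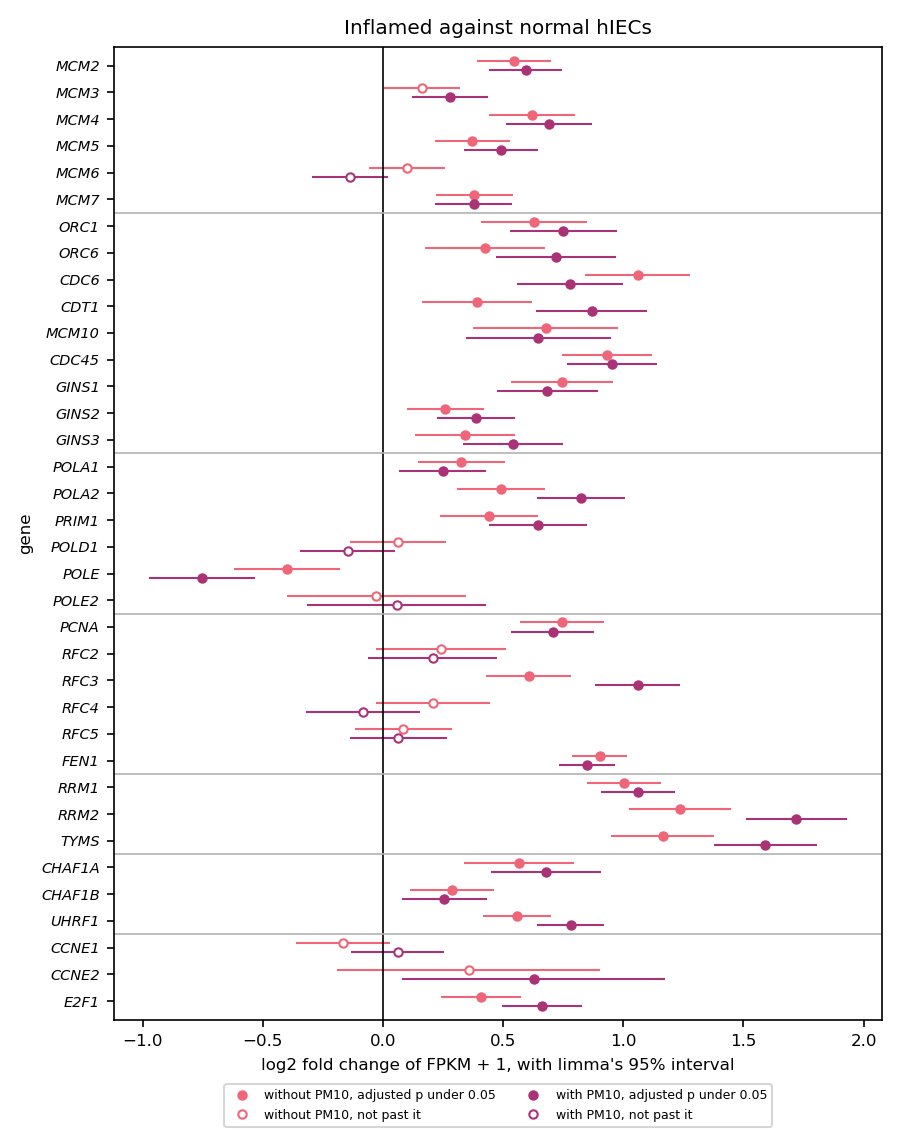
Log2 fold change of FPKM + 1 between inflamed and normal hIECs for each of the 36 genes, without PM10 and with PM10, with limma's 95% intervals. Filled points passed an adjusted p under 0.05. RRM2 lies farthest to the right at 1.24 and 1.72, and POLE is the only filled point below 0 in either comparison.

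With the genes grouped by role, deoxynucleotide supply had the largest median log2 fold changes, 1.16 without PM10 and 1.59 with it. Single genes of other roles came close or went past, and without PM10 CDC6 (1.06) rose more than RRM1 (1.00). The log2(FPKM + 1) scale understates changes of low genes. By ratio of means without PM10, CDC6 (2.42) was also above TYMS (2.30). RRM2, the regulated small subunit of ribonucleotide reductase (chr2:10120698-10211725, plus strand), was at 11.96 and 9.82 FPKM in the normal libraries and at 27.5 and 26.3 in the inflamed libraries. With PM10 it was at 8.01 and 7.57 FPKM in normal hIECs and 29.0 and 26.9 in inflamed hIECs. All 4 libraries with cytokines lay above all 4 without, at 2.47 times the mean level without PM10 and 3.59 times with it. The log2 fold change was 1.24 (SE 0.09, adjusted p = 2.67e-05) without PM10 and 1.72 (SE 0.09, adjusted p = 3.74e-06) with it. RRM1, the large subunit of the same enzyme (chr11:4094707-4138932, plus strand), was at 12.9 and 11.4 FPKM in normal and 25.5 and 24.99 in inflamed hIECs, and at 11.6 and 11.8 and 25.2 and 25.8 in the same cells with PM10. It rose by 1.00 (SE 0.07, adjusted p = 1.51e-05) and 1.06 (SE 0.07, adjusted p = 7.77e-06). TYMS, which makes the thymidylate used only for DNA (chr18:657653-673578, plus strand), was at 21.4 and 19.99 FPKM in normal hIECs, 16.2 and 13.5 with PM10, 46.3 and 48.9 in inflamed hIECs and 44.4 and 49.1 with both. Again the 4 libraries with cytokines lay above the other 4. Its log2 fold changes were 1.16 (SE 0.09, adjusted p = 3.94e-05) and 1.59 (SE 0.09, adjusted p = 5.72e-06).

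**Figure D3:**
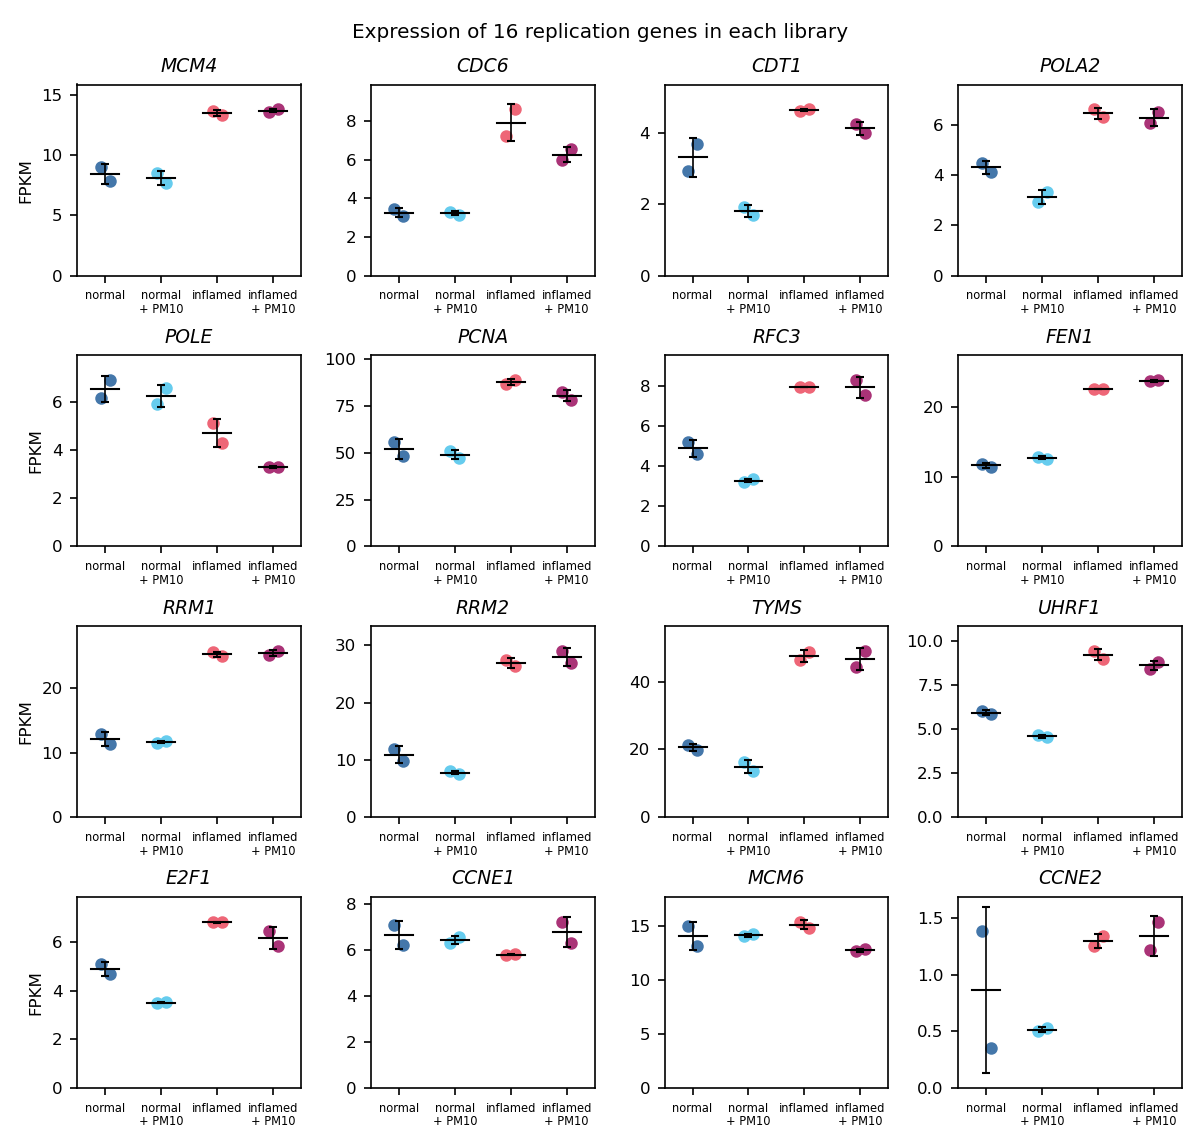
FPKM of 16 of the 36 genes in each library, with points for the 2 libraries of a group, bars for the mean and error bars for the SD. RRM1, RRM2, TYMS and FEN1 are high in all 4 libraries with cytokines, POLE is low there, and the 2 normal libraries of CCNE2 lie far apart at 1.39 and 0.350 FPKM.

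Of the genes that license origins and activate the helicase, 9 of 9 rose in each cytokine comparison. Of all genes tested 25.9% rose without PM10 and 25.8% with it. The median log2 fold changes of the 9 genes were 0.63 and 0.72. CDC6, the ATPase that loads MCM2-7 (chr17:40287879-40304657, plus strand), was at 3.45 and 3.09 FPKM in normal hIECs and 7.24 and 8.60 in inflamed hIECs, and at 3.31 and 3.15 and 5.98 and 6.54 with PM10. It was high in every library with cytokines, and highest in those without PM10, with log2 fold changes of 1.06 (SE 0.09, adjusted p = 6.73e-05) and 0.78 (SE 0.09, adjusted p = 0.000246). CDC45, a part of the active helicase, was at 3.26 and 2.71 FPKM in normal hIECs, 2.74 and 2.65 with PM10, 6.55 and 6.63 in inflamed hIECs and 6.22 and 6.08 with both. The groups with and without cytokines did not overlap, and CDC45 rose by 0.93 (adjusted p = 5.87e-05) and 0.95 (adjusted p = 3.88e-05). ORC1, the largest origin recognition subunit, rose from a low level, 1.11 ± 0.0347 FPKM in normal and 2.26 ± 0.196 in inflamed hIECs, and MCM10, which helps to start unwinding, from 1.16 ± 0.0319 to 2.45 ± 0.115. Among the GINS subunits, GINS1 rose by 0.75 and 0.68, GINS3 by 0.34 and 0.54 and GINS2 by 0.26 and 0.39 on the log2 scale. CDT1, the partner of CDC6 in loading, was at 2.92 and 3.68 FPKM in normal hIECs, 1.92 and 1.69 with PM10, 4.60 and 4.65 in inflamed hIECs and 4.25 and 3.99 with both. It rose by 0.39 (adjusted p = 0.0115) without PM10 and by 0.87 (adjusted p = 0.000182) with PM10. ORC6, another origin recognition subunit, rose by 0.42 (adjusted p = 0.0114) and 0.72 (adjusted p = 0.000705). In the comparison without PM10, the calls of ORC6 and GINS3 were lost without the first inflamed library, at adjusted p of 0.0759 and 0.0710, and those of CDT1 and GINS2 without the second, at 0.0529 and 0.0912. ORC6 was also lost without the second normal library, at an adjusted p of 0.0621.

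The 6 subunits of the MCM2-7 ring, which are needed in equal number in each helicase, did not change alike. MCM4 was at 9.03 and 7.88 FPKM in normal and 13.7 and 13.3 in inflamed hIECs, and at 8.52 and 7.71 and 13.6 and 13.8 with PM10. Both inflamed groups lay above both normal groups, and the log2 fold changes of 0.62 (SE 0.08, adjusted p = 0.000368) and 0.69 (SE 0.08, adjusted p = 0.00016) were the largest of the ring. MCM2 rose by 0.54 and 0.59, MCM7 by 0.38 and 0.38 and MCM5 by 0.37 and 0.49. MCM3 passed the test with PM10 only, at 0.28 (adjusted p = 0.00821) against 0.16 (adjusted p = 0.0726) without it, and the difference between these effects was 0.11 (adjusted p = 0.522). MCM3 also passed without PM10 when the first normal library was left out, at 0.26 (adjusted p = 0.00615), under median centring (0.17, adjusted p = 0.0271) and without mitochondrial genes (0.21, adjusted p = 0.0371). MCM6 passed in neither, at 0.10 (95% interval −0.06 to 0.26) without PM10 and −0.14 (95% interval −0.29 to 0.02) with PM10. It was called higher without PM10 when the first normal library was left out, at 0.18 (adjusted p = 0.0282), and lower with PM10, at −0.14, in 3 alternatives, with adjusted p of 0.0425 when the groups compared were fitted alone and 0.0308 and 0.0306 without the first or the second normal library. In normal hIECs the group means ranged from 6.47 FPKM for MCM2 to 19.4 for MCM3, a ratio of 3.00. In inflamed hIECs with PM10 they ranged from 10.2 FPKM for MCM2 to 22.3 for MCM7, a ratio of 2.198.

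Among polymerase genes POLA1, POLA2 and PRIM1, which prime new strands, rose and POLE fell. POLA2, the accessory subunit of DNA polymerase alpha, was at 4.49 and 4.13 FPKM in normal hIECs, 2.93 and 3.32 with PM10, 6.61 and 6.29 in inflamed hIECs and 6.06 and 6.52 with both. All libraries with cytokines were above all others, and POLA2 rose by 0.49 (SE 0.08, adjusted p = 0.00137) and 0.82 (SE 0.08, adjusted p = 7.25e-05). POLA1, the catalytic subunit of the same enzyme, rose by 0.33 (adjusted p = 0.00889) and 0.25 (adjusted p = 0.0237), and PRIM1, the primase that makes the RNA primer, by 0.44 (adjusted p = 0.00396) and 0.65 (adjusted p = 0.000447). POLE, the catalytic subunit of DNA polymerase epsilon, which extends the leading strand (chr12:132623753-132687376, minus strand), was at 6.17 and 6.91 FPKM in normal hIECs and 5.14 and 4.31 in inflamed hIECs. With PM10 its levels were 5.94 and 6.58 FPKM in normal and 3.29 and 3.32 in inflamed hIECs. Every library with cytokines lay below every library without, and the inflamed libraries with PM10 were the lowest of all. Under cytokines, POLE was the 1 gene of the 36 called lower with all 8 libraries fitted. Its log2 fold changes were −0.40 (SE 0.09, adjusted p = 0.00849) without PM10 and −0.75 (SE 0.09, adjusted p = 0.000296) with PM10. Without the second inflamed library the change without PM10 was −0.30, with an adjusted p of 0.0552. POLA1 and PRIM1 values in inflamed hIECs were 5.10 ± 0.139 and 4.82 ± 0.517 FPKM, and the call of POLA1 was lost in 1 alternative without PM10 (the second inflamed library left out, adjusted p = 0.0521) and in 3 with PM10, up to an adjusted p of 0.134 without the first inflamed library with PM10. No exon of another annotated gene overlaps POLE or POLA1. POLA2 shares 21.3% of its exonic bases with other genes, the highest of them at 2.09 FPKM. PRIM1 shares 19.1%, with an overlapping gene at 419 FPKM, so the values of POLA2 and PRIM1 are less certain. POLE2, the second subunit of the same polymerase, did not pass, at −0.03 (95% interval −0.40 to 0.34) and 0.06 (95% interval −0.32 to 0.43). POLD1, the catalytic subunit of the lagging strand polymerase delta, did not pass either, at 0.06 (95% interval −0.14 to 0.26) and −0.15 (95% interval −0.35 to 0.05).

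The sliding clamp rose and most of its loader did not pass the test. PCNA was at 55.8 and 48.4 FPKM in normal hIECs, 50.7 and 47.2 with PM10, 86.8 and 88.8 in inflamed hIECs and 82.6 and 78.5 with both. The groups with cytokines lay above those without and did not overlap them, with log2 fold changes of 0.74 (adjusted p = 0.000124) and 0.71 (adjusted p = 0.000121). FEN1, the nuclease that trims Okazaki fragments, went from 11.9 and 11.4 to 22.6 and 22.7 FPKM, and from 12.9 and 12.6 to 23.7 and 23.9 with PM10. It had the smallest adjusted p of the 36 genes without PM10, at 0.90 (SE 0.05, adjusted p = 6.3e-06), and rose by 0.85 (SE 0.05, adjusted p = 5.83e-06) with PM10. Of the clamp loader subunits, RFC3 (chr13:33818069-33966558, plus strand) was at 5.18 and 4.58 FPKM in normal hIECs, 3.21 and 3.34 with PM10, 7.95 and 7.94 in inflamed hIECs and 8.29 and 7.56 with both. Again the groups with cytokines were the high ones, and RFC3 rose by 0.61 (SE 0.08, adjusted p = 0.000386) and 1.06 (SE 0.08, adjusted p = 1.63e-05). RFC2, RFC4 and RFC5, which form the loader together with RFC3 and the large subunit RFC1, passed in neither comparison, though RFC2 passed without the first inflamed library (0.42, adjusted p = 0.0145) and, with PM10, in the fit to only the groups compared (0.21, adjusted p = 0.0163), and RFC4, in the comparison without PM10, when either normal library with PM10 was left out (0.21, adjusted p = 0.0464 and 0.0468). Their log2 fold changes were 0.24, 0.21 and 0.08 without PM10 and 0.21, −0.08 and 0.06 with PM10.

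All 3 chromatin genes rose in both comparisons, where 25.9% and 25.8% of all genes tested rose. UHRF1, which brings the maintenance DNA methyltransferase to newly copied DNA, was at 6.04 and 5.83 FPKM in normal hIECs, 4.65 and 4.53 with PM10, 9.43 and 8.98 in inflamed hIECs and 8.41 and 8.80 with both. Its groups with cytokines were higher, with no overlap, and its log2 fold changes were 0.56 (adjusted p = 0.000189) and 0.78 (adjusted p = 2.5e-05). CHAF1A and CHAF1B, subunits of the complex that deposits histones behind the fork, rose by 0.57 and 0.68 and by 0.29 and 0.26. The call of CHAF1B was lost without the second inflamed library (adjusted p = 0.0778) and, with PM10, when any 1 of the 4 libraries compared was left out (0.0552 to 0.0860).

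Regulators of S phase entry were split. E2F1, an activating E2F factor, was at 5.10 and 4.71 FPKM in normal hIECs, 3.51 and 3.54 with PM10, 6.82 and 6.85 in inflamed hIECs and 6.49 and 5.85 with both. It was higher in all libraries with cytokines and lowest in normal hIECs with PM10, and it rose by 0.41 (adjusted p = 0.0021) and 0.66 (adjusted p = 0.000135). Cyclin E1 drives the same transition, and its gene CCNE1, at 6.65 ± 0.605 FPKM in normal and 5.80 ± 0.0241 in inflamed hIECs, passed in neither comparison, with log2 fold changes of −0.17 (95% interval −0.36 to 0.03) and 0.06 (95% interval −0.13 to 0.26). CCNE2 was at 1.39 and 0.350 FPKM in normal hIECs, 0.502 and 0.530 with PM10, 1.26 and 1.34 in inflamed hIECs and 1.22 and 1.47 with both. Its normal libraries spanned the whole range of the inflamed ones, so the 2 groups overlapped. It passed with PM10 only, at 0.63 (adjusted p = 0.0464), and this call was lost in 10 of 16 alternatives. Without the first normal library CCNE2 also passed in the comparison without PM10, at 0.77 (adjusted p = 0.00242).

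The calls were set beside the promoter words. Of the 21 genes with an E2F word, 17 rose and 1 (POLE) fell without PM10, with a median log2 fold change of 0.49, and 18 rose and 1 fell with PM10, with a median of 0.66. Of the 12 genes without such a word, 7 rose in each comparison, with medians of 0.36 and 0.45. Over all genes tested, 25.9% rose and 30.3% fell without PM10, and 25.8% rose and 39.6% fell with PM10. Genes without the word included RRM2 and RRM1, and genes with it included MCM6 and POLE2, which did not pass. The difference between these groups of genes was not tested.

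PM10 alone went with lower levels of some replication genes in normal hIECs. In the fit to all 8 libraries, 9 of the 36 genes fell and 0 rose with PM10 in normal hIECs, while 3.72% of all genes tested were called lower and 5.51% higher. At an unadjusted p under 0.05, 13 genes were lower and 1 was higher. The median log2 fold change of the 36 genes was −0.11, against 0.06 over all genes, and 33 of the 36 values were below 0. Values per library stand above for CDT1, RFC3, TYMS, RRM2, E2F1, POLA2 and UHRF1, and for each of these both normal libraries with PM10 lay below both normal libraries. These genes were picked by their calls in this comparison, so the separation is no further support. How many of all genes separated in this way was not counted. The same holds for the other called genes whose groups are said not to overlap. The log2 fold change was largest for CDT1, −0.61 (SE 0.10, adjusted p = 0.0143), followed by RFC3 with −0.46 (SE 0.08, adjusted p = 0.0154), TYMS with −0.46 (SE 0.09, adjusted p = 0.0279) and RRM2 with −0.43 (SE 0.09, adjusted p = 0.0305). E2F1 was at −0.39 (adjusted p = 0.0215), GINS2 at −0.38 (adjusted p = 0.0201), POLA2 at −0.37 (adjusted p = 0.0329), UHRF1 at −0.31 (adjusted p = 0.0249) and MCM5 at −0.30 (adjusted p = 0.0366), all past the threshold. GINS2 was at 4.56 and 4.85 FPKM in normal hIECs and 3.41 and 3.33 with PM10, and MCM5 was at 10.1 and 9.99 and 7.50 and 8.48. These calls rest on the spread pooled over all 4 groups. When limma was fitted to the 4 normal libraries alone, 0 of the 36 genes passed, and 23 of all genes tested passed in place of 1311. Most of the 9 calls, and most of those over all genes tested, were lost when either normal library with PM10 was left out. Some of the 9 were also lost without any 1 of the inflamed libraries or either normal library. CDT1 and MCM5 had the largest and smallest changes of the 9. Over the alternatives these ranged from −0.83 to −0.49 and from −0.38 to −0.22. None of the 9 calls held under every alternative.

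**Figure D4:**
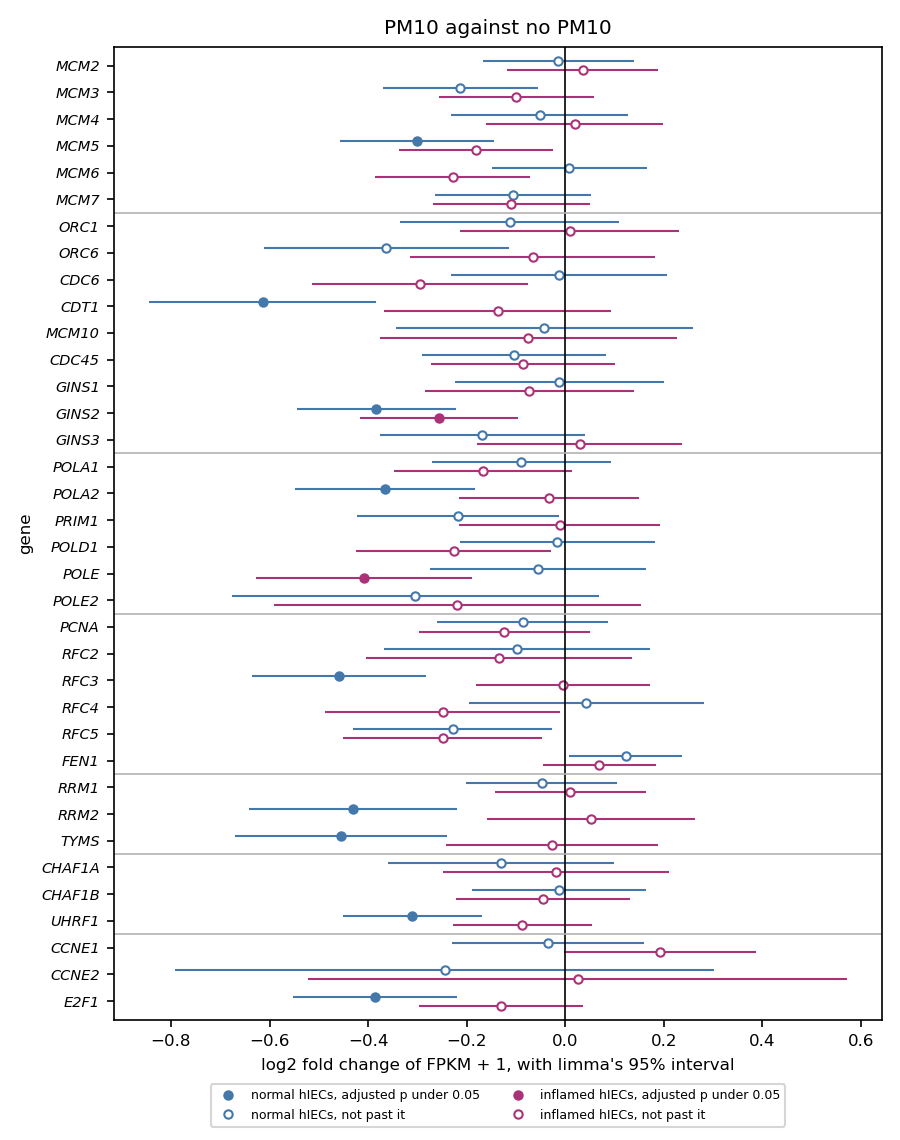
Log2 fold change of FPKM + 1 with PM10 against without it for each of the 36 genes, in normal and in inflamed hIECs, with limma's 95% intervals. Filled points passed an adjusted p under 0.05 in the fit to all 8 libraries: 9 genes in normal hIECs and POLE and GINS2 in inflamed hIECs, all below 0.

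In inflamed hIECs, few of these genes passed the test of PM10. limma called 2 of the 36 genes lower and 0 higher, against 9.02% and 6.22% of all genes tested, and at an unadjusted p under 0.05 8 were lower and 0 higher. The median log2 fold change was −0.08, and −0.01 over all genes. POLE fell, with a log2 fold change of −0.41 (SE 0.09, adjusted p = 0.0292), from 5.14 and 4.31 to 3.29 and 3.32 FPKM. GINS2 fell as well, at −0.26 (SE 0.07, adjusted p = 0.0469), from 5.62 and 6.04 to 4.86 and 4.57 FPKM. For both genes the groups did not overlap. The call of POLE was lost in 5 of 17 alternatives and that of GINS2 in 12, and neither gene passed without the first inflamed library or without either inflamed library with PM10. POLE was then at adjusted p of 0.145, 0.125 and 0.116, and GINS2 at 0.111, 0.123 and 0.206. MCM6 did not pass, at −0.23 (adjusted p = 0.0612), but was called lower in 5 of 17 alternatives, with adjusted p of 0.0186 to 0.0411, among them those without either normal library. RRM2, TYMS and RRM1 did not pass, at 0.05 (95% interval −0.16 to 0.26), −0.03 (95% interval −0.24 to 0.19) and 0.01 (95% interval −0.14 to 0.16).

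The interaction asks whether the effect of PM10 differed between inflamed and normal hIECs. None of the 36 genes passed it in limma's test, against 2.11% of all genes called higher and 4.48% called lower, and at an unadjusted p under 0.05 7 were higher and 2 lower. The values nearest the threshold were those of RFC3, 0.45 (adjusted p = 0.0503), and RRM2, 0.48 (adjusted p = 0.0691), and over the alternatives their adjusted p ranged from 0.0212 to 0.155 and from 0.0184 to 0.197. Under median centring and quantile normalization both genes passed, at 0.50 and 0.52 for RFC3 and at 0.53 and 0.56 for RRM2. Without the second normal library RFC3, RRM2 and CCNE2 passed, at 0.53, 0.61 and 0.68, and without the first CDT1 at 0.60 and MCM6 at −0.32. CDT1 and TYMS were at 0.48 (adjusted p = 0.0908) and 0.43 (adjusted p = 0.101). 

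Related lists place these genes within the cell cycle. Of 49 other replication genes, 27 rose and 3 fell without PM10 and 31 rose and 4 fell with PM10, with medians of 0.35 and 0.40, against 25.9% and 30.3% of all genes tested without PM10 and 25.8% and 39.6% with it. CLSPN, the fork checkpoint adaptor, rose by 0.80 and 0.99 from 0.371 and 0.427 FPKM in normal hIECs. These values lay near the lowest level above 0 of any gene in the normal libraries (0.164 and 0.214 FPKM). At such levels log2(FPKM + 1) understates the ratio of FPKM. POLD2, a subunit of polymerase delta, fell, at −0.48 (adjusted p = 0.000153) and −0.53 (adjusted p = 6.88e-05), from 37.1 and 36.1 to 25.1 and 26.7 FPKM without PM10. TK1, the thymidine kinase of S phase, was at 14.2 and 14.2 FPKM in normal hIECs, 7.54 and 8.003 with PM10, 25.1 and 23.3 in inflamed hIECs and 20.9 and 19.3 with both. It was lowest in normal hIECs with PM10, where its log2 fold change was −0.80 (adjusted p = 0.00149). With PM10 the shares called lower lay near those of all genes (3.72% in normal and 9.02% in inflamed hIECs). In normal hIECs 3 of the 49 genes (6.12%) fell with PM10, 0 in the fit to the 4 normal libraries alone. In inflamed hIECs 5 (10.2%) did. Most of these calls, and most over all genes, were lost when any 1 of the 4 inflamed libraries was left out.

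Genes of mitosis were also higher under cytokines. All 19 rose in both cytokine comparisons, where 25.9% and 25.8% of all genes did, with medians of 0.65 and 1.11. The difference from the replication genes was not tested. AURKA, a spindle kinase, rose by 1.05 and 1.40. With PM10 in normal hIECs 17 of 19 fell, against 3.72% of all genes, with a median of −0.47, and NUSAP1, a spindle protein, was farthest down, at −1.53 (adjusted p = 0.00326), from 16.4 and 15.2 to 5.91 and 3.89 FPKM. As for the replication genes, 0 passed in the fit to the 4 normal libraries alone, where 23 of all genes tested did. In inflamed hIECs 5 of 19 fell with PM10, against 9.02% of all genes. Most of these calls, like most over all genes, were lost when 1 of the 4 inflamed libraries was left out.

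**Figure D5:**
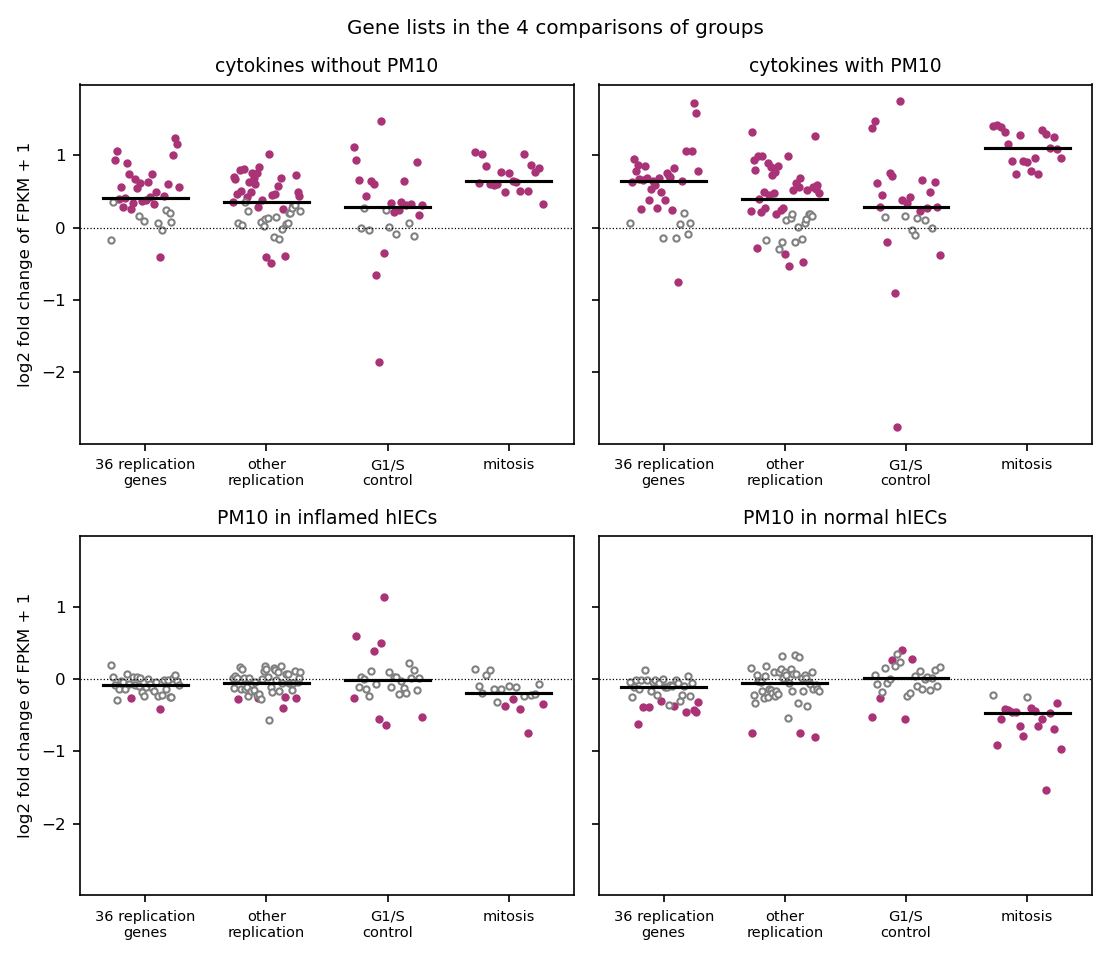
Log2 fold change of FPKM + 1 for each gene of 4 lists (36 replication genes, 49 other replication genes, 28 G1/S control genes, 19 mitosis genes) in the 4 comparisons of groups. Filled points passed an adjusted p under 0.05 and lines are medians: for the mitosis genes 1.11 under cytokines with PM10 and −0.47 for PM10 in normal hIECs.

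Genes that control entry into S phase changed in both directions. Of 28 such genes, 17 rose and 3 fell without PM10 and 17 rose and 4 fell with PM10, with medians of 0.29 and 0.29, against the same 25.9% and 30.3%, and 25.8% and 39.6%, of all genes. CCND1, encoding cyclin D1, which starts inactivation of the retinoblastoma family, was at 12.9 and 12.6 FPKM in normal hIECs, 13.9 and 12.9 with PM10, 25.3 and 25.3 in inflamed hIECs and 39.2 and 38.8 with both. Cyclin A2, the S phase cyclin encoded by CCNA2, rose by 1.12 and 1.38. Inhibitors of cyclin-dependent kinases, which hold cells out of S phase, were split. CDKN1A rose by 0.60 and 0.71, reaching 154 and 147 FPKM in inflamed hIECs with PM10, and CDKN2A rose by 1.48 and 1.76. CDKN1C, at 26.7 and 26.4 FPKM in normal hIECs and 5.96 and 7.32 in inflamed hIECs, fell, at −1.86 (adjusted p = 1.27e-05) and −2.76 (adjusted p = 1.24e-06), and CDKN1B fell too, at −0.66 and −0.91. CDKN2B fell without PM10, at −0.35 (adjusted p = 0.00787), and rose with PM10, at 0.38 (adjusted p = 0.00458). Of the retinoblastoma family, RBL1 rose by 0.33 and 0.50, RB1 passed with PM10, at 0.27, and not without it, at 0.06, and RBL2 did not pass, at −0.11 and −0.01.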

How the data were processed

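RNA-seq of 8 libraries of 2D hIECs was analysed. The authors selected poly-A RNA, made libraries that keep no strand information, trimmed reads with Cutadapt and Sickle, aligned them to GRCh38 with HISAT2 and estimated with StringTie the FPKM values they deposited, 1 per gene and library. The annotation release is not given in the sources used here. No depth in reads can be had from these files. limma 3.58.1 (R 4.3.3) was fitted to log2(FPKM + 1) of all 8 libraries, with a variance trend, over 14206 genes at 1 FPKM or more in at least 2 libraries, with Benjamini-Hochberg adjustment within each of 5 comparisons. This scale understates changes of low genes. On simulated data for cytokines without PM10 over 14206 genes, 193 of 200 changed genes were called, and 9 others. The planted changes were 1 or 2 in size on the log2 scale, in genes averaging at least 2 on it. Smaller changes, as most here were, and changes of lower genes were not planted. Positions and overlaps came from GENCODE 44, which held 99.5% of the gene identifiers, and promoters from RefSeq (GRCh38.p14). The 36 genes, the other lists and the tests were chosen with earlier results of these data known. Every library is given for members called with a log2 fold change of at least 1 and for the largest call of each role; CDC45, CDT1, PCNA, FEN1, POLE, CCNE2 and GINS2 were added after their values were seen, and other lists give up to 4 called genes, with cyclin D, inhibitor and retinoblastoma genes. Alternatives covered scaling, pseudocount, filters, trend, groups fitted, the replicate number as a block and each library left out. 1 gene of the other replication list is not reported here by name.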

Additional observations from a re-analysis of the deposited data

Results flagged for a closer look

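None of the 36 replication genes passed the test of whether PM10 acted differently in inflamed and normal hIECs. Genes of the related lists did, and are given because the 2 effects differed in limma's interaction test. Of 49 other replication genes 3 were called higher and 0 lower. Of 28 G1/S control genes 2 were higher and 2 lower (7.14% each), and of 19 mitosis genes 6 were higher and 0 lower. Of all genes tested, 2.11% were called higher and 4.48% lower. Among other replication genes the interaction was 0.70 for RNASEH2A (adjusted p = 0.00998), 0.63 for ASF1B (adjusted p = 0.0267) and 0.54 for TK1 (adjusted p = 0.0196) on the log2 scale. RNASEH2A, a subunit of the nuclease that removes ribonucleotides from DNA, was at 9.39 and 9.57 FPKM in normal hIECs, 5.12 and 5.36 with PM10, 9.78 and 8.97 in inflamed hIECs and 8.62 and 9.41 with both. ASF1B, a histone chaperone, was at 6.93 and 7.66 FPKM, 4.14 and 3.72, 11.7 and 13.3, and 11.6 and 11.2 in the same order. Only the normal hIECs with PM10 stood apart for RNASEH2A, and they were the lowest group for ASF1B.

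Among G1/S control genes the interaction was −0.91 for CDKN1C (adjusted p = 0.0247), 0.74 for CDKN2B (adjusted p = 0.0149), −0.69 for TFDP2 (adjusted p = 0.0107) and 0.55 for CCND1 (adjusted p = 0.00925). Of 6 mitosis genes past the threshold, the 4 with the largest values were AURKB at 0.81 (adjusted p = 0.0470), UBE2C at 0.63 (adjusted p = 0.0193), BUB1B at 0.55 (adjusted p = 0.0162) and CDC20 at 0.51 (adjusted p = 0.0295). The interaction calls of these lists depended on single libraries. All those of the mitosis genes were lost without the second normal library with PM10, either inflamed library or the second inflamed library with PM10. Fewer of all genes were called in those fits as well. The causes of these differences were not tested.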

How the results depend on the processing

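Over 17 alternatives no call of a replication gene changed direction. Of 2974 recomputed values of single genes, 2837 stayed on their side of the threshold, 101 calls were lost and 36 gained. The replicate numbers did not pair the libraries (correlations of deviations between −0.0015 and 0.079). With a replicate block 26 genes were higher and 1 lower under cytokines without PM10, and 27 and 1 with PM10. For PM10 itself, 2 were lower in inflamed hIECs, POLE and RFC5, while the call of GINS2 was lost. In normal hIECs 7 were lower, and 1 was higher in the interaction.

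The median log2 fold change under cytokines without PM10, 0.42, was 0.51 without mitochondrial genes and 0.51 at a pseudocount of 0.1. With PM10, 0.65 became 0.73 under quantile normalization, 0.77 without mitochondrial genes and 0.77 at a pseudocount of 0.1. Quantile normalization gave −0.17 for PM10 in normal hIECs and 0.16 for the interaction. Fits to only the groups compared called 2 genes lower under cytokines with PM10. They called 1 lower with PM10 in inflamed hIECs, MCM6, and 0 in normal hIECs. Genes lower with PM10 in inflamed hIECs also numbered 1 under quantile normalization, again MCM6. In both of these settings POLE and GINS2 were lost. The number was also 1, POLE, without mitochondrial genes, at a pseudocount of 0.1 and with no filter. In the interaction 2 genes were higher under median centring and under quantile normalization, and 1 at a pseudocount of 0.1 and at a minimum of 5 FPKM. Scaling also moved the calls of all genes: with PM10 in normal hIECs 783 were higher and 528 lower, against 563 and 749 under median centring and 628 and 633 under quantile normalization. In the interaction 300 were higher and 637 lower, against 453 and 539, and 425 and 487.

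With 1 library left out, genes higher under cytokines ranged from 22 to 29 without PM10 and from 25 to 28 with it, and genes lower from 0 to 1 and from 1 to 2. The medians ranged from 0.37 to 0.52 and from 0.61 to 0.65. Genes lower with PM10 ranged from 0 to 3 in inflamed and from 0 to 6 in normal hIECs, where the median ranged from −0.18 to −0.061. In the interaction 0 to 3 were higher and 0 to 1 lower, with medians of 0.0021 to 0.12. A group with 1 library was assumed to vary like the others. The causes were not tested. With 2 libraries a group and no read counts, small changes of low genes such as CCNE2 could not be resolved.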

Other observations

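A promoter word of mitotic genes was also counted in the RefSeq windows, the CHR (cell cycle genes homology region), searched on both strands as TTTGAA and TTCGAA. It was present in 2 of the 33 replication genes with a window (6.06%), MCM6 and RRM1, and in 12 of 16 mitosis genes (75.0%), against 19.5% of all genes. E2F words were in 63.6% of the replication genes, 45.0% of the other replication genes and 18.8% of the mitosis genes. These shares describe the windows and were not tested.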
